A study of Mus musculus with 7 samples.

Results

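Respiratory complexes II to V are the later stations of the mitochondrial electron transport chain and the ATP synthase. They were followed here as 47 genes in light zone germinal centre B cells of mice labelled MIZ1KO and Control. The members were chosen by name and by count: protein-coding genes of GENCODE vM21 called Sdha to Sdhd or Cyc1, or with names that begin with Uqcr, Cox4 to Cox8, Atp5, mt-Co, mt-Cytb or mt-Atp, with at least 10 counts in 3 or more libraries. Of 55 genes that fitted the names, 54 had a row in the count table of 48795 genes, and 47 reached the count minimum. They comprised 4 genes of complex II, 10 of complex III, 14 of complex IV and 19 of complex V. Of these, 41 were encoded in the nucleus and 6 in the mitochondrial genome. All 47 were among the 11618 genes tested.

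The mice had been given sheep red blood cells intravenously, and light zone germinal centre B cells were sorted from the spleen 10 days later for bulk sequencing of polyA RNA. The comparison sets 3 samples labelled MIZ1KO, with sample titles that carry MizFF, against 4 labelled Control, with titles that carry eYFP, and all 7 were immunised. The labels give neither the strain, the age nor the driver of the deletion, and nothing in them ties a sample to a separate animal; p-values therefore reflect the scatter of these samples, some of which may be technical. MIZ1 is the zinc finger transcription factor encoded by Zbtb17, and the comparison asks how these cells' transcripts differ when it is lost. In bulk samples, fewer cells of a type and less RNA per cell cannot be told apart.

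Complex II, succinate dehydrogenase, oxidises succinate within the tricarboxylic acid cycle and passes the electrons to ubiquinone. Complex III moves them from ubiquinol to cytochrome c, and complex IV, cytochrome c oxidase, gives them to oxygen; both pump protons. Complex V lets protons flow back and makes ATP. Complexes III, IV and V each mix subunits from both genomes, whereas complex II is wholly nuclear. Germinal centre B cells divide fast and are known to use oxidative phosphorylation.

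The libraries held 6896643 to 9482418 counts in total, of which 3087979 to 5084984 lay outside ribosomal RNA. Ribosomal RNA thus held a large part of the counts. Markers of B cells, germinal centre B cells and the light zone had counts in all 7 libraries, and so did those of the dark zone. Light zone markers summed to 701 to 799 CPM in MIZ1KO and 619 to 951 CPM in Control. Dark zone markers summed to 376 to 389 CPM in MIZ1KO and 328 to 416 CPM in Control. Counts in every library therefore do not tell the 2 zones apart. Zbtb17 measured 3.7 to 5.16 CPM in MIZ1KO and 3.15 to 7.02 CPM in Control. CPM, the unit of all levels here, are counts scaled to the normalised size of the library, ribosomal RNA counts included. The Zbtb17 count covers the whole gene and so does not check a partial deletion. Transcript models of the class TEC, mostly unspliced single-exon models, held a share of the non-ribosomal counts of 0.544% to 0.923% in MIZ1KO and 1.02% to 2.58% in Control, without overlap. T cell markers summed to 42.1 to 47.8 CPM in MIZ1KO and 25.9 to 32.8 CPM in Control. Most of that was Lck, at 30.9 to 40.4 CPM in MIZ1KO and 24.7 to 32.7 CPM in Control, and the other 6 T cell genes summed to 1.72 to 16.9 CPM in MIZ1KO and 0.131 to 1.56 CPM in Control. Plasma cell markers summed to 177 to 255 CPM in MIZ1KO and 205 to 377 CPM in Control, erythroid markers to 61 to 489 CPM in MIZ1KO and 115 to 425 CPM in Control, and myeloid markers to 5.91 to 23 CPM in MIZ1KO and 7.12 to 12.3 CPM in Control. The nuclear RNA Malat1 fell, at 1247 to 2434 CPM in MIZ1KO and 3727 to 6829 CPM in Control (log2 fold change -1.67, adjusted p = 0.015, edgeR), as did Xist, at 1881 to 2909 CPM in MIZ1KO and 4169 to 10165 CPM in Control (-1.59, adjusted p = 0.0218, edgeR). Of the B cell and germinal centre markers, Cd79a, a signalling chain of the B cell receptor, rose (0.86, adjusted p = 0.0333, edgeR) and Rgs13, a regulator of G protein signalling, fell (-1.32, adjusted p = 0.023, edgeR). The part of these differences in the values below was not tested. For the nuclear-encoded members, Control replicates 1 and 3 stood apart from the other libraries at opposite ends, and results that rest on them are given with and without them. These libraries were singled out from the values of the same members. Leaving out the highest or lowest Control library of a gene shifts its fold change in a direction set beforehand. A call gained that way is a description and adds no support.

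Of the 47 members, 1 rose and 1 fell in MIZ1KO, and 45 did not pass the test. Atp5d, which encodes the delta subunit in the rotating stalk of the ATP synthase, rose, and Cox7b, which encodes a small subunit of cytochrome c oxidase, fell. These are 4.26% of the members at an adjusted p under 0.05 in the quasi-likelihood test of edgeR, where 5.96% of all tested genes passed, 1.9% higher and 4.05% lower. The members' share of calls lay near that background. Log2 fold changes, MIZ1KO over Control, had a median of 0.02 over the members and -0.03 over all genes tested, with 24 members above 0 and 23 below. The members' log2 fold changes ran from -1.57 to 0.79, with standard errors from 0.20 to 0.58. Their libraries separated without overlap in 1 member, Atp5d, or 2.13%, with MIZ1KO higher, against 8.74% of all genes tested in that direction and 19.5% in either. Summed over the nuclear-encoded members, the MIZ1KO libraries lay between the Control extremes, at 3719 to 5310 CPM against 2552 to 6222 CPM. In single members a MIZ1KO library was often the highest or lowest.

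**Figure D1:**
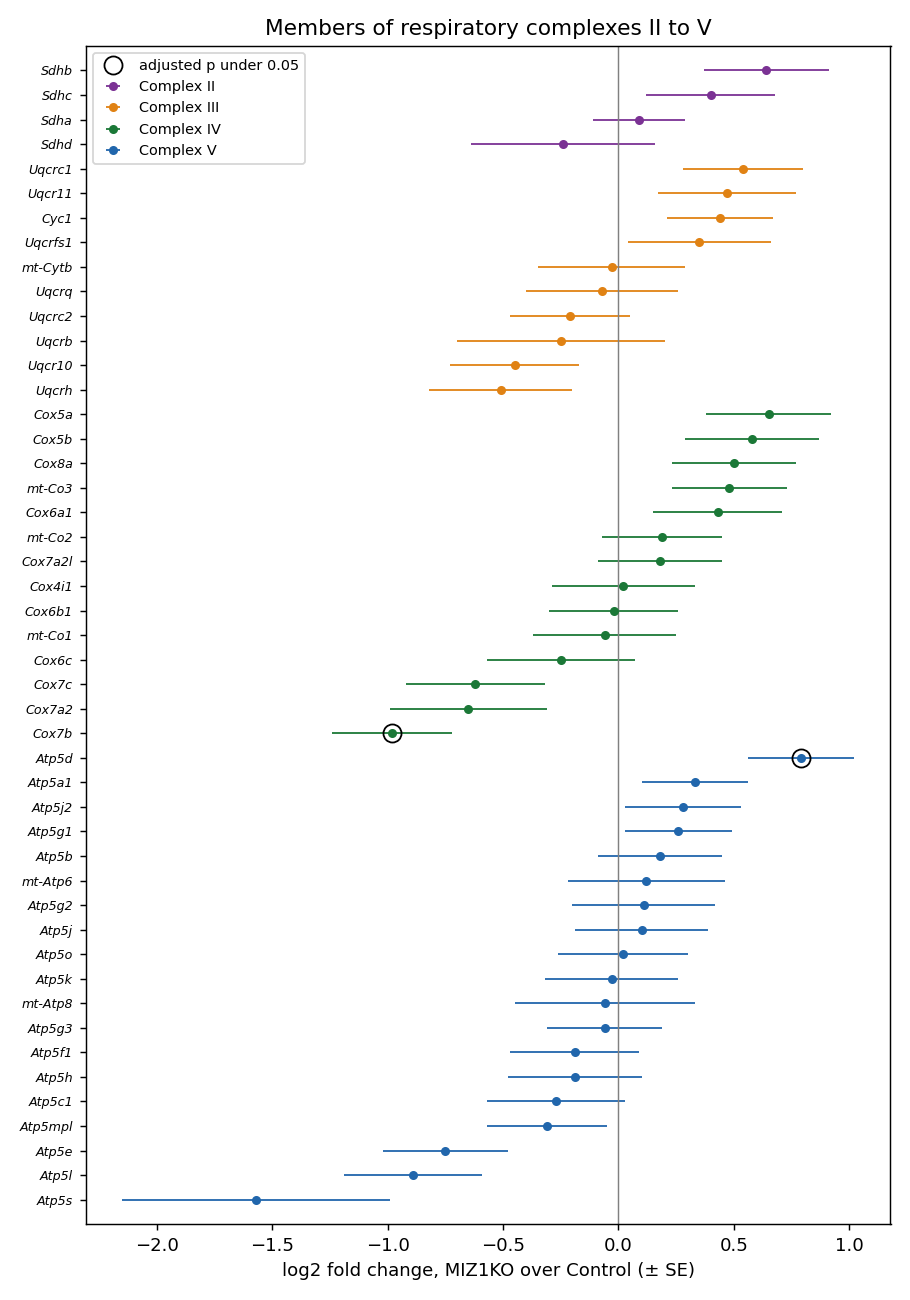
Log2 fold change of MIZ1KO over Control with its standard error for the 47 members, one row per gene, ordered by complex and coloured by it; circled points passed an adjusted p of 0.05. Cox7b at -0.98 and Atp5d at 0.79 are circled, and the other points scatter to both sides of 0.

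The promoters of the 2 members that passed are shown first, because they are the genes on which the comparison turns. Of the 47 members, 30 matched a RefSeq promoter window on GRCm38.p6, which holds 250 bases before and 50 after a gene's start. The 250 bases upstream of the start are printed, with capitals for a match to the core of the ZNF143 motif, ACTACA and TTCCC with 1 base of any kind between them. The Cox7b stretch is chrX:106015450-106015699 on the plus strand, and the Atp5d stretch, at 1 of 2 RefSeq starts and 3643 bases into the GENCODE gene, is chr10:80142025-80142274 on the plus strand.
Cox7b: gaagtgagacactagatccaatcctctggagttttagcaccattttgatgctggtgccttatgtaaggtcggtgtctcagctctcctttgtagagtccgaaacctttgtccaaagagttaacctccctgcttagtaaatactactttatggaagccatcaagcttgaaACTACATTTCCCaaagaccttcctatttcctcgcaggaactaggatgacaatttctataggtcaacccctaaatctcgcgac
Atp5d: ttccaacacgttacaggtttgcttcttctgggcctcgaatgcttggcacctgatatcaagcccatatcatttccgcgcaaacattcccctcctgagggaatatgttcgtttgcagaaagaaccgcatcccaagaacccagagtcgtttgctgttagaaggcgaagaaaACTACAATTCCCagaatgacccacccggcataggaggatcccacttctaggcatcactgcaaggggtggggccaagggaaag
In both stretches the match begins 82 bases before the start. This motif was chosen after these sequences were seen, so their own matches count for nothing. On either strand it occurred in 2 of the other 28 members, Cox7c and Uqcr10, or 7.14%, and in 1.49% of the 17492 protein-coding genes with a window. The core of the NRF1 motif, GCGC repeated after 2 bases of any kind, occurred in 33.3% of the members and 9.61% of all genes. CCGGAAG, bound by ETS factors such as GABPA, occurred in 40% of the members and 12.9% of all genes. AANATGGC, a YY1 core, occurred in 13.3% of the members and 7.46% of all genes, Cox7b among them. NRF1, GABPA and YY1 are known activators of nuclear genes for respiration. A match is a description of letters, not a site.

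Cox7b measured 65.9, 83.5 and 52.1 CPM in MIZ1KO replicates 1 to 3 and 141, 182, 76.1 and 135 CPM in Control replicates 1 to 4. Its libraries overlapped only where Control replicate 3 lay below MIZ1KO replicate 2. Its mean was 67.2 ± 15.7 CPM over the 3 MIZ1KO libraries and 133 ± 43.8 CPM over the 4 Control libraries (SD), which gave a log2 fold change of -0.98 ± 0.26 (SE) with an adjusted p of 0.0358 (edgeR). Cox7b (ENSMUSG00000031231) lies on chromosome X from 106015700 to 106022450 in GRCm38, and its transcript was 42% GC against a median of 50.4% over the nuclear members. The call ended with a correction for GC content and length (log2 fold change -0.29, adjusted p = 0.431), in limma-voom (0.0584) and without any 1 of 5 libraries, with adjusted p-values of 0.175, 0.0504 and 0.133 without MIZ1KO replicates 1, 2 and 3, and 0.114 and 0.108 without Control replicates 2 and 4. Without any 1 library the log2 fold change of Cox7b stayed between -1.13 and -0.8, while the share of all genes that passed ran from 0.324% to 11.9%. Without Control replicates 1 and 3 together it was -1.21 (adjusted p = 0.00941, edgeR).

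Atp5d measured 131, 125 and 146 CPM in MIZ1KO and 104, 89.1, 49.6 and 68.6 CPM in Control. Every MIZ1KO library lay above every Control library. Its mean was 134 ± 10.8 CPM over the 3 MIZ1KO libraries and 77.9 ± 23.9 CPM over the 4 Control libraries (SD), which gave a log2 fold change of 0.79 ± 0.23 (SE) with an adjusted p of 0.049 (edgeR), just inside the threshold. Atp5d (ENSMUSG00000003072) lies on chromosome 10 from 80138632 to 80145818 and overlaps Cbarp, which measured 0.5 to 2.26 CPM in MIZ1KO and 0.262 to 2.1 CPM in Control. Its transcript was 61.1% GC, the highest of the nuclear members. The call ended when base composition and length were corrected for (log2 fold change 0.31, adjusted p = 0.306), with the TEC share as a covariate (0.18, adjusted p = 0.821), in the legacy fit (0.0636), in limma-voom (0.0557), among protein-coding genes only (0.0563) and without any 1 of 6 libraries: 0.145, 0.0581 and 0.134 without MIZ1KO replicates 1, 2 and 3, and 0.0884, 0.0662 and 0.124 without Control replicates 2, 3 and 4. Without any 1 library the log2 fold change of Atp5d stayed between 0.67 and 0.96. Without Control replicates 1 and 3 together it was 0.79 (adjusted p = 0.0417, edgeR).

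Set against each other inside each library, these 2 genes gave a ratio of Cox7b to Atp5d CPM of 0.50, 0.67 and 0.36 in MIZ1KO and 1.35, 2.05, 1.53 and 1.96 in Control. The pair was taken for its opposite changes, so the ratio is a description.

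**Figure D2:**
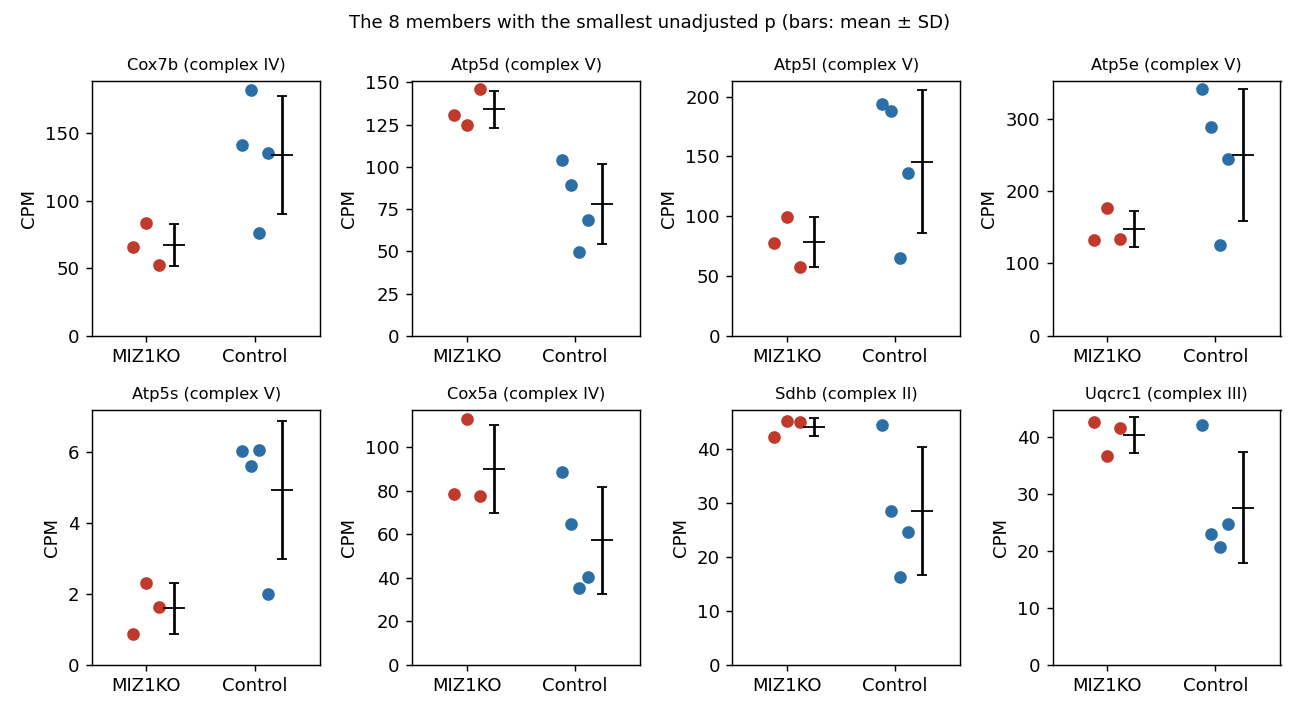
CPM in each library (points) with the group mean ± SD (bars) for the 8 members with the smallest unadjusted p, MIZ1KO (n = 3) left and Control (n = 4) right in each panel. Atp5d separates, at 125 to 146 CPM in MIZ1KO and 49.6 to 104 CPM in Control, while the other 7 panels show an overlap of the libraries.

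In complex II, none of the 4 members passed, and 3 lay above 0. Sdhb, the iron-sulphur subunit, had the largest positive change of the complex. It measured 42.3, 45.3 and 45 CPM in MIZ1KO and 44.6, 28.6, 16.3 and 24.6 CPM in Control. The MIZ1KO libraries lay close together and above 3 of the Control libraries. Its log2 fold change was 0.64 ± 0.27 (adjusted p = 0.162, edgeR). Without Control replicate 1 it passed, at 0.93 (adjusted p = 0.0205, edgeR), where 11.9% of all genes tested passed. Without Control replicates 1 and 3 it was 0.76 and did not pass (adjusted p = 0.0936, edgeR). Sdhd, a membrane anchor of the complex, had the most negative change. It measured 37.3, 88.5 and 22.2 CPM in MIZ1KO and 102, 65.2, 32.2 and 37.6 CPM in Control, a spread within each group that exceeded the difference, with a log2 fold change of -0.24 ± 0.40 (adjusted p = 0.763, edgeR). Sdha, the flavoprotein that holds the succinate site, measured 0.09 ± 0.20 and Sdhc, the other anchor, 0.40 ± 0.28 as log2 fold changes.

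In complex III, none of the 10 members passed, and 4 lay above 0. Uqcrc1, a core subunit, measured 42.7, 36.7 and 41.5 CPM in MIZ1KO and 42.1, 22.9, 20.7 and 24.7 CPM in Control. As with Sdhb, Control replicate 1 lay among the MIZ1KO libraries and the other 3 Control libraries below them. Its log2 fold change was 0.54 ± 0.26 (adjusted p = 0.199, edgeR), and without Control replicate 1 it was 0.82 and passed (adjusted p = 0.0285, edgeR). In that fit 11.9% of all genes tested passed. Without Control replicates 1 and 3 it was 0.77 and did not pass (adjusted p = 0.0978, edgeR). Uqcrh, the hinge protein that helps cytochrome c1 meet cytochrome c, lay lowest. It measured 79.4, 133 and 72.7 CPM in MIZ1KO and 197, 173, 65.4 and 111 CPM in Control, with a log2 fold change of -0.51 ± 0.31 (adjusted p = 0.314, edgeR). The catalytic members were Cyc1, cytochrome c1, with a log2 fold change of 0.44 ± 0.23, Uqcrfs1, the Rieske iron-sulphur protein, with 0.35 ± 0.31, and mt-Cytb. Without Control replicate 1, Uqcrfs1 was 0.81 (adjusted p = 0.0365, edgeR) and Uqcr11, a small subunit, 0.86 (adjusted p = 0.0366, edgeR), and both passed. Without Control replicates 1 and 3 they were 0.83 (adjusted p = 0.0955, edgeR) and 0.65 (adjusted p = 0.145, edgeR), and neither passed. The members of the complex therefore lay to both sides of 0.

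In complex IV, Cox7b fell and the other 13 members did not pass. Cox5a had the largest positive change. It measured 78.6, 113 and 77.4 CPM in MIZ1KO and 88.7, 64.6, 35.3 and 40.2 CPM in Control, with a log2 fold change of 0.65 ± 0.27 (adjusted p = 0.15, edgeR). Without Control replicate 1 it was 0.95 and passed (adjusted p = 0.0171, edgeR), as did Cox5b at 1.00 (adjusted p = 0.0103, edgeR). In that fit 11.9% of all genes tested passed. Without Control replicates 1 and 3, Cox5a was 0.81 (adjusted p = 0.0757, edgeR) and Cox5b 0.83 (adjusted p = 0.055, edgeR), and neither passed. Cox5b and Cox8a, also small nuclear subunits, lay above 0 as well, with log2 fold changes of 0.58 ± 0.29 and 0.50 ± 0.27. Cox7a2 and Cox7c lay below 0 with Cox7b, at -0.65 ± 0.34 and -0.62 ± 0.30.

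Several complex IV subunits have paralogs that differ by tissue. Cox4i1, the ubiquitous form of subunit 4, measured 190, 317 and 204 CPM in MIZ1KO and 365, 272, 107 and 189 CPM in Control (log2 fold change 0.02 ± 0.31, adjusted p = 0.973, edgeR), and its lung form Cox4i2 had no counts in any library. Cox6a1, the liver-type form, measured 132, 202 and 125 CPM in MIZ1KO and 178, 123, 60.6 and 95.8 CPM in Control (log2 fold change 0.43 ± 0.28, adjusted p = 0.369, edgeR). Its heart and muscle form Cox6a2 had 0 to 2 counts in MIZ1KO and 0 to 1 in Control. Cox7a2 measured 44.3, 63.5 and 25.1 CPM in MIZ1KO and 106, 86.8, 31 and 57.5 CPM in Control (log2 fold change -0.65 ± 0.34, adjusted p = 0.251, edgeR). Cox7a2l has been described as a factor that joins complexes III and IV in supercomplexes, a role not examined in these mice. It measured 181, 243 and 223 CPM in MIZ1KO and 273, 236, 108 and 147 CPM in Control (log2 fold change 0.18 ± 0.27, adjusted p = 0.737, edgeR). In each of these genes the libraries of the groups overlapped. The muscle form Cox7a1, the testis form Cox6b2 and Cox6a2 had a few counts under the minimum, and Cox4i2, Cox7b2, Cox8b and Cox8c had none. Just outside the minimum, Cox6b2 had 1, 14 and 0 counts in MIZ1KO and 1, 1, 3 and 10 in Control. Inside the minimum, Atp5s, the member with the lowest level, had 8, 23 and 10 counts in MIZ1KO and 46, 36, 46 and 20 in Control.

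In complex V, Atp5d rose and the other 18 members did not pass. The lowest, Atp5s, was named for a coupling factor of the synthase. It measured 0.86, 2.3 and 1.61 CPM in MIZ1KO and 6.03, 5.6, 6.04 and 2 CPM in Control, with a log2 fold change of -1.57 ± 0.58 (adjusted p = 0.109, edgeR). Control replicate 4 lay among the MIZ1KO libraries. Atp5l and Atp5e followed. Atp5l, subunit g of the membrane part, measured 77.3, 99.5 and 57.9 CPM in MIZ1KO and 194, 188, 64.7 and 136 CPM in Control (log2 fold change -0.89 ± 0.30, adjusted p = 0.0822, edgeR). Atp5e, the epsilon subunit beside delta in the rotating stalk, measured 133, 177 and 134 CPM in MIZ1KO and 341, 288, 126 and 244 CPM in Control (log2 fold change -0.75 ± 0.27, adjusted p = 0.102, edgeR). Without Control replicate 3, the lowest Control library for both, they passed, Atp5l at -1.09 (adjusted p = 0.0137, edgeR) and Atp5e at -0.93 (adjusted p = 0.0193, edgeR). In that fit 3.79% of all genes tested passed. Without Control replicates 1 and 3 both passed too, at -1.02 (adjusted p = 0.0221, edgeR) and -0.83 (adjusted p = 0.0285, edgeR). The libraries left out were singled out from the same members, so these calls are a description. In both genes, 3 Control libraries lay above every MIZ1KO library and Control replicate 3 among or below them. Delta and epsilon, which sit together in the rotor, thus had log2 fold changes of opposite sign, 0.79 and -0.75, of which the first passed with all 7 libraries. The catalytic subunits Atp5a1 (alpha) and Atp5b (beta) gave 0.33 ± 0.23 and 0.18 ± 0.27.

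Subunit c, whose ring turns in the membrane, comes from 3 genes that are known to encode the same mature protein. Atp5g1 measured 109, 98.9 and 90.2 CPM in MIZ1KO and 112, 94.6, 54.7 and 71.4 CPM in Control (log2 fold change 0.26 ± 0.23, adjusted p = 0.519, edgeR). Atp5g2 measured 80.6, 118 and 65 CPM in MIZ1KO and 132, 93.3, 40.9 and 61 CPM in Control (0.11 ± 0.31, adjusted p = 0.863, edgeR). Atp5g3 measured 76, 107 and 60.3 CPM in MIZ1KO and 121, 90.7, 62.2 and 67.6 CPM in Control (-0.06 ± 0.25, adjusted p = 0.91, edgeR). No difference between the groups exceeded the spread between libraries for any of the 3. The processed copy Gm10175 is 100% identical to Atp5g2 over 645 bases and held counts equal to 73.2% of those of Atp5g2. Gene and copy together averaged 157 ± 31.8 CPM over the 3 MIZ1KO libraries and 139 ± 55.1 CPM over the 4 Control libraries (SD).

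The 6 mitochondrially encoded members had a median log2 fold change of 0.05, and 0 passed in edgeR, DESeq2 or limma-voom. In edgeR 0 had an unadjusted p under 0.05, where 24.6% of all genes tested did. With a correction for GC content and length, mt-Co2 was 1.00 (adjusted p = 0.0162, edgeR) and mt-Co3 1.29 (adjusted p = 0.00705, edgeR), both of which passed, and the median was 0.92. Transcripts of these 6 members lie near the low end of GC content. Over the protein-coding genes tested it ran from 31.9% to 70%, with a median of 49.8%. Whether the correction holds at that end was not tested. mt-Co1, the catalytic core of complex IV, measured 3198, 2334 and 2768 CPM in MIZ1KO and 2187, 3346, 4016 and 1971 CPM in Control (log2 fold change -0.06 ± 0.31, adjusted p = 0.935, edgeR). mt-Co2, which receives electrons from cytochrome c, measured 655, 418 and 458 CPM in MIZ1KO and 311, 576, 528 and 369 CPM in Control (0.19 ± 0.26, adjusted p = 0.694, edgeR). mt-Co3, the third core subunit, measured 539, 250 and 396 CPM in MIZ1KO and 267, 336, 286 and 248 CPM in Control (0.48 ± 0.25, adjusted p = 0.246, edgeR). In all 3 genes the libraries of the groups overlapped, and for mt-Co3 MIZ1KO replicate 1 was the highest of the 7.
mt-Cytb, cytochrome b of complex III, measured 1396, 949 and 1080 CPM in MIZ1KO and 623, 1354, 1803 and 869 CPM in Control (-0.03 ± 0.32, adjusted p = 0.972, edgeR). mt-Atp6, which forms the proton path of complex V, measured 585, 256 and 200 CPM in MIZ1KO and 199, 406, 446 and 231 CPM in Control (0.12 ± 0.34, adjusted p = 0.872, edgeR). mt-Atp8, which shares a transcript with mt-Atp6, measured 18.7, 6.89 and 9.17 CPM in MIZ1KO and 6.82, 15.9, 16.1 and 10.2 CPM in Control (-0.06 ± 0.39, adjusted p = 0.948, edgeR). For these genes too the groups overlapped.

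Near-identical nuclear copies of mitochondrial genes also held counts. On chromosome 1, Gm10925 is 100% identical to mt-Atp6 over 678 bases and held counts equal to 89.5% of those of mt-Atp6. Gm28437 held 60.2% of the counts of mt-Co3, Gm28661 42.2% of those of mt-Co2 and Gm29216 12.3% of those of mt-Co1. None of these copies passed the test, with log2 fold changes of 0.24 ± 0.31, 0.36 ± 0.32, 0.09 ± 0.32 and -0.37 ± 0.28 in that order. Gene and copy together averaged 681 ± 328 CPM in MIZ1KO and 603 ± 229 CPM in Control for mt-Atp6, and 628 ± 227 CPM in MIZ1KO and 467 ± 98 CPM in Control for mt-Co3 (SD, n = 3 and n = 4). The labels do not say how reads were divided between gene and copy. In addition, mt-Atp6 also overlaps mt-Atp8 and mt-Co3. Among the nuclear members, Atp5g2, Atp5l and Uqcrb had copies that held over 10% of their own counts.

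Levels per length, in CPM per kilobase of one principal transcript averaged over the 7 libraries, set the mitochondrial core subunits above most nuclear ones. mt-Co1 stood at 1833, mt-Cytb at 1008, mt-Co2 at 692, mt-Atp6 at 487 and mt-Co3 at 423. Of the nuclear members, Atp5e at 490, Atp5b at 360 and Cox4i1 at 315 were highest. The lowest were Atp5s at 2.35, Sdhc at 6.11 and Uqcrc1 at 20. By group, Atp5e averaged 352 ± 59.7 in MIZ1KO and 593 ± 218 in Control, and mt-Co1 1791 ± 280 in MIZ1KO and 1864 ± 627 in Control (SD, n = 3 and n = 4), whereas mt-Atp6 averaged 509 ± 306 in MIZ1KO and 471 ± 181 in Control, and mt-Co3 504 ± 185 in MIZ1KO and 363 ± 48.6 in Control. Neighbours in this order such as Atp5e, mt-Atp6 and mt-Co3 thus lay within their spread, and Atp5e ranked below both in MIZ1KO and above both in Control.

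Most nuclear members moved together from library to library, and more within Control than between the groups. Their summed level was 4011, 5310 and 3719 CPM in MIZ1KO replicates 1 to 3 and 6222, 5053, 2552 and 3656 CPM in Control replicates 1 to 4. Control held both the highest and the lowest library. The means were 4347 ± 847 CPM in MIZ1KO and 4371 ± 1603 CPM in Control (SD, n = 3 and n = 4). Of the 41 nuclear members, 29 were highest in Control replicate 1 and 27 lowest in Control replicate 3.

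The mitochondrial members did not follow that order. Their summed level was 6393, 4213 and 4911 CPM in MIZ1KO and 3594, 6035, 7095 and 3699 CPM in Control. Control replicate 1 was lowest and Control replicate 3 highest, the reverse of the nuclear sum. The ratio of the mitochondrial to the nuclear sum was 1.59, 0.79 and 1.32 in MIZ1KO and 0.58, 1.19, 2.78 and 1.01 in Control, with means of 1.24 ± 0.407 and 1.39 ± 0.962 (SD, n = 3 and n = 4). The groups overlapped fully in this ratio.

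**Figure D3:**
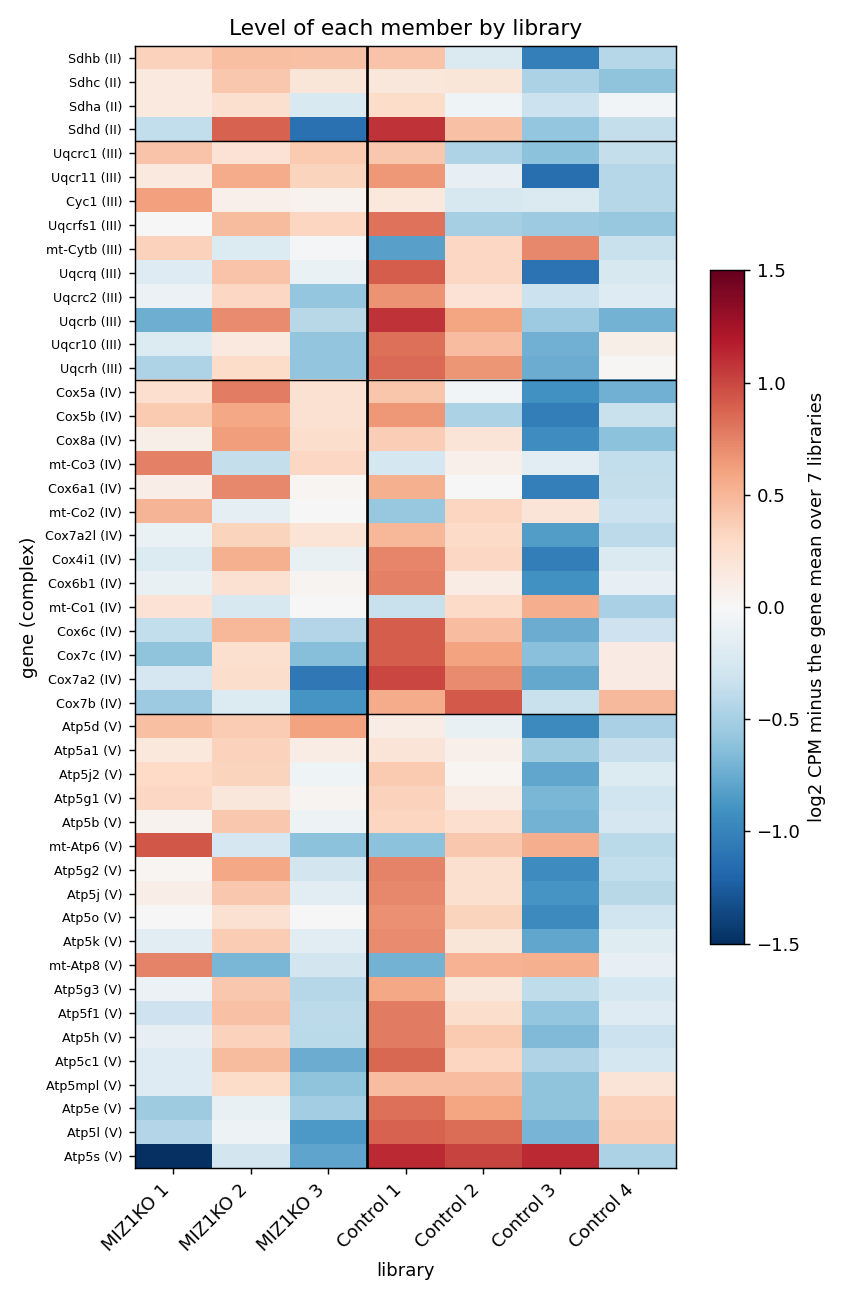
Log2 CPM of each member in each library minus that gene's mean over the 7 libraries; rows are genes ordered by complex and log2 fold change, columns are libraries with MIZ1KO left of the vertical line and Control right of it. Control replicate 1 is high and Control replicate 3 low in most nuclear rows, and Control replicate 1 is below the mean in all 6 mitochondrial rows.

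The share of TEC models ran beside these sums. It was 0.544%, 0.603% and 0.923% in MIZ1KO and 1.02%, 1.62%, 2.58% and 1.95% in Control. Within Control, the order from low to high share was replicates 1, 2, 4 and 3, which is the order of the nuclear sum from high to low. The MIZ1KO libraries had lower shares than every Control library, without a higher nuclear sum. With the TEC share as a covariate, the median log2 fold change of the nuclear members was -1.14, and 16 members passed, all lower in MIZ1KO, where 2.55% of all genes tested passed; since the share did not overlap between the groups, it cannot be told apart from genotype. Without Control replicate 1 the members' median was 0.26 and 8 passed, 7 higher and 1 lower, where 11.9% of all genes tested passed. Without Control replicate 3 the median was -0.06 and 3 passed, all lower, where 3.79% of all genes passed. Without both, a choice made after the data were seen, the median was 0.08 and 4 passed, Atp5d higher and Cox7b, Atp5l and Atp5e lower, where 4.08% of all genes passed.

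**Figure D4:**
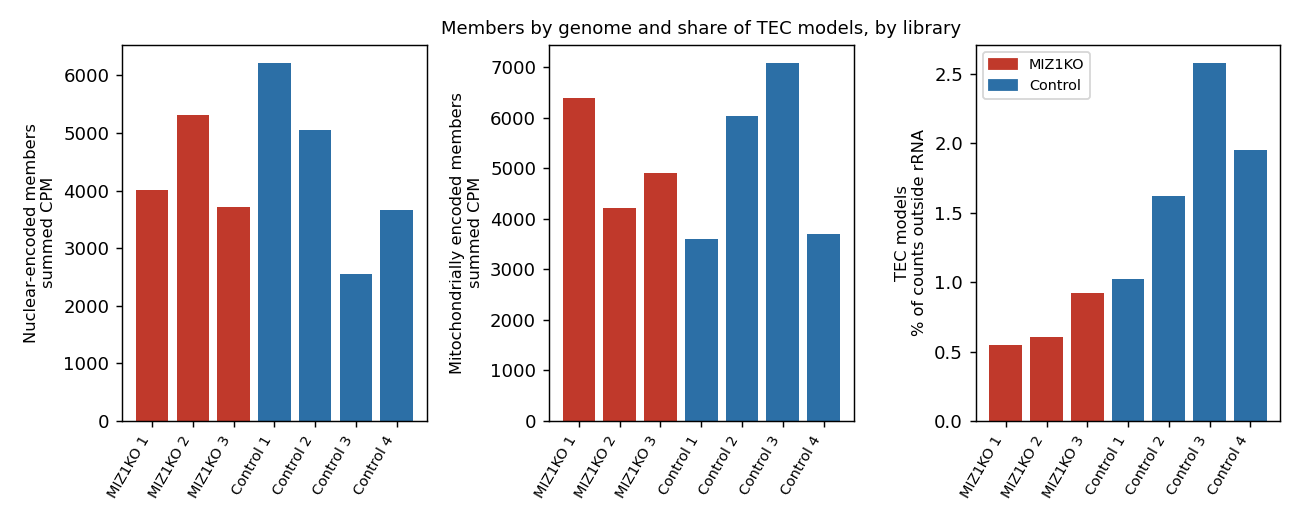
Bars give, for each library, the summed CPM of the 41 nuclear-encoded members (left), the summed CPM of the 6 mitochondrially encoded members (middle) and the percentage of counts outside ribosomal RNA in TEC models (right), MIZ1KO in red and Control in blue. Within Control the nuclear sum is highest, 6222 CPM, where the TEC share is lowest, 1.02%, and lowest, 2552 CPM, where the share is highest, 2.58%.

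Log2 fold change tended to rise with the GC content of the transcript, with exceptions. Among these were Atp5e, at 54.6% GC and -0.75, and Cox5a, at 49% GC and 0.65. Across the 41 nuclear members, log2 fold change and GC content of the transcript had a Spearman correlation of 0.54, given as a description across genes, which are not independent. The same correlation over the 9805 protein-coding genes tested was 0.45, near that of the members. The 10 nuclear members with the lowest log2 fold changes had a median GC content of 47.8% and a median length of 546 bases, and the 10 with the highest had 56.6% and 898 bases. With a correction for GC content and length, 5 members passed, where 3.88% of all genes tested passed: Cox5a, Cox5b, mt-Co2 and mt-Co3 higher and Atp5e lower, and neither Cox7b nor Atp5d was among them. The correction moved the median of the mitochondrial members, whose transcripts are 31.9% to 39.9% GC, to 0.92. Whether it holds at that low end of GC content was not tested.

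**Figure D5:**
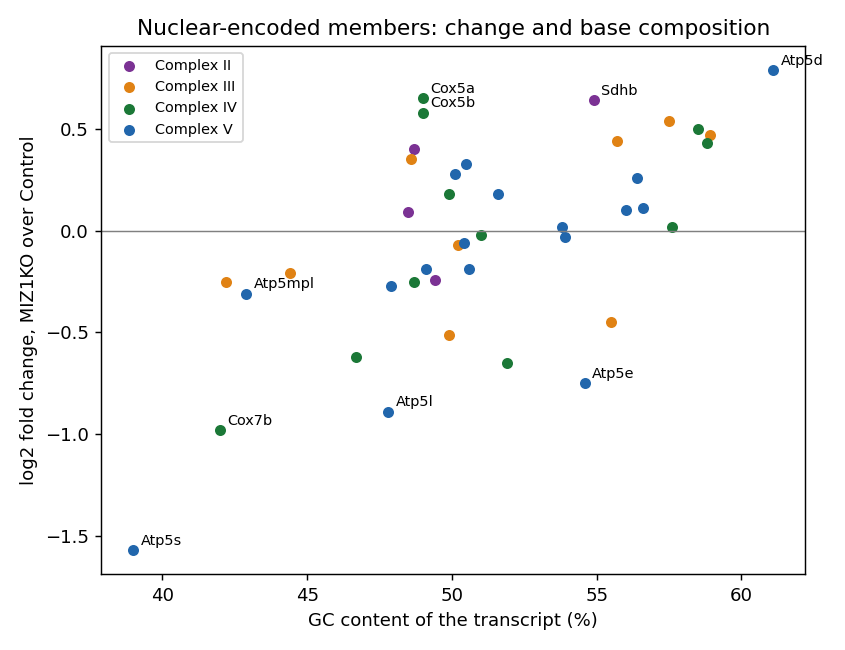
Log2 fold change of MIZ1KO over Control against the GC content of the transcript in percent for the 41 nuclear-encoded members, coloured by complex. The points tend to rise with GC content, from Atp5s at 39% and Cox7b at 42% to Atp5d at 61.1%.

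Genes around the complexes were read from lists of known function. Of 35 assembly factors of complexes II to V tested, 0 passed in edgeR, DESeq2 or limma-voom, with a median log2 fold change of -0.01. In edgeR 3 had an unadjusted p under 0.05, where 24.6% of all genes tested did. The nearest were Cox17, a copper chaperone of complex IV, at -0.67 ± 0.24 (adjusted p = 0.0908, edgeR), Cmc2 at 0.87 ± 0.32, Cox16 at -0.68 ± 0.29 and Fmc1 at -0.86 ± 0.45. Of 15 genes for cytochrome c and coenzyme Q, 1 fell, or 6.67%, against 5.96% of all genes tested in either direction and 4.05% lower. Pdss1, which makes the isoprenoid tail of coenzyme Q, measured 4.51, 6.09 and 5.31 CPM in MIZ1KO and 10.5, 18.5, 15.6 and 15.1 CPM in Control, all MIZ1KO libraries below all Control libraries, with a log2 fold change of -1.48 ± 0.35 (adjusted p = 0.022, edgeR). Pdss2, Coq10a and Coq10b gave -0.77 ± 0.42, 0.74 ± 0.43 and -0.62 ± 0.46.

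Of 14 tricarboxylic acid cycle enzymes, 11 lay above 0, the median log2 fold change being 0.31, and 0 passed in edgeR, DESeq2 or limma-voom. An unadjusted p under 0.05 in edgeR was found for 4 of them, where 24.6% of all genes tested had one. Cs, Mdh2 and Idh3g, which encode citrate synthase, malate dehydrogenase and a subunit of isocitrate dehydrogenase, gave 0.48 ± 0.19, 0.52 ± 0.21 and 0.54 ± 0.23. Of 24 genes for mitochondrial genome expression and its nuclear regulators, 1 rose and 1 fell, or 8.33%, near the 5.96% of all genes tested. Ssbp1, the single-stranded DNA-binding protein of mitochondrial replication, measured 24.9, 22 and 22.4 CPM in MIZ1KO and 52.5, 54.1, 42 and 55.9 CPM in Control (log2 fold change -1.15 ± 0.22, adjusted p = 0.0127, edgeR). Pprc1, a coactivator related to PGC-1, measured 41.7, 31.6 and 45.5 CPM in MIZ1KO and 16.7, 16.2, 21.4 and 17.6 CPM in Control (1.13 ± 0.24, adjusted p = 0.0162, edgeR). In both the libraries did not overlap. Polg2, an accessory subunit of the mitochondrial DNA polymerase, and Polrmt, the mitochondrial RNA polymerase, gave -1.22 ± 0.44 and 1.00 ± 0.39 without passing. Atpif1, the inhibitor of the ATP synthase, gave -0.18 ± 0.33 (adjusted p = 0.782, edgeR).

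The calls of these 3 genes were lost without some single libraries, while their log2 fold changes stayed between -1.62 and -1.32 for Pdss1, -1.19 and -1.05 for Ssbp1, and 1.03 and 1.34 for Pprc1 without any 1 library. Pdss1 had adjusted p-values in edgeR of 0.134 and 0.0571 with MIZ1KO replicate 1 or 3 left out, 0.0698 and 0.0752 with Control replicate 2 or 4 left out, 0.0604 when corrected for base composition and length and 0.443 when the TEC share was a covariate. For Ssbp1 it was 0.0735 without MIZ1KO replicate 1, 0.0508 without Control replicate 4 and 0.0579 with the GC and length correction. For Pprc1 it was 0.086 without MIZ1KO replicate 1, 0.051 without MIZ1KO replicate 3, 0.0514 without Control replicate 2 and 0.0581 with the TEC share as a covariate.

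Related gene groups were read in the same way. Of 44 complex I genes tested, 1 rose and 0 fell, with a median log2 fold change of 0.12. Of 78 genes for mitochondrial ribosomal proteins, 1 rose and 0 fell, with a median of 0.15, and of 80 for cytosolic ribosomal proteins, 0 rose and 1 fell, with a median of 0.03. The share of genes called was 2.27% for complex I, 1.28% for mitochondrial ribosomal proteins and 1.25% for cytosolic ones, beside 4.26% for complexes II to V and 5.96% for all genes tested. No difference between these groups was tested.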

How the data were processed

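RNA of 7 samples was grouped by the genotype label, 3 MIZ1KO and 4 Control. The authors deposited expected counts per gene, not normalized. The aligner STAR 2.5.2, the quantifier RSEM 1.3.0 and the build GRCm38 appear in the submitters' processing notes. The annotation release, strand setting and treatment of shared reads were not stated in those notes or the labels. The authors also deposited log2 values, named as variance-stabilised, with DESeq2 1.18.1 and R 3.4.3 named per the submitters' processing notes; these served as an alternative input.

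Counts were rounded (6.61% were not whole), filtered with filterByExpr, scaled by TMM and compared with the quasi-likelihood test of edgeR 4.0.16 in R 4.3.3 (the newer, non-legacy fit, robust, two-sided, Benjamini-Hochberg adjustment over 11618 genes, threshold 0.05). A standard error is the absolute log2 fold change over the square root of F. Symbols, lengths, GC content and positions came from GENCODE vM21, with symbols for 48349 of 48795 identifiers; lengths and GC content are of one principal transcript per gene. Copies are other transcripts with at least 95% identity over at least 100 bases. The fit was tested on simulated data.

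Values in every sample are given for members that passed, for the highest and lowest log2 fold change of each complex, for mitochondrially encoded members and for the subunit c, Cox4i, Cox6a and Cox7a2 paralogs, and from each other list up to 4 genes with the smallest p are named. Uqcrfs1, Atp5l and Atp5e, and other members given by fold change alone, were chosen after their values were seen. Members and lists were chosen with earlier results of these data known. Alternatives were the legacy fit, DESeq2 1.42.0, limma-voom (limma 3.58.1), other scalings and filters, protein-coding genes only, the deposited log2 values, a GC and length correction, the TEC share as a covariate, a replicate block and leaving out libraries. Counting error and replicate number limit precision.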

Additional observations from a re-analysis of the deposited data

Results flagged for a closer look

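In the Control group of 4 libraries, single libraries stood apart in 2 members. Uqcrfs1, the Rieske protein of complex III, measured 51.7 CPM in Control replicate 1, and 20.8, 20.2 and 19.8 CPM in the other Control libraries, beside 29.4, 41 and 36.8 CPM in MIZ1KO. Atp5s measured 2 CPM in Control replicate 4, and 6.03, 5.6 and 6.04 CPM in the other Control libraries, beside 0.86, 2.3 and 1.61 CPM in MIZ1KO. Each gap exceeded the share of the group's range that Dixon's limit for 4 values allows. Of 47 members checked, chance flags about 1 in 20 groups, which is near the number seen. The MIZ1KO group, with 3 libraries, was not checked this way. Uqcrfs1 had a log2 fold change of 0.35 ± 0.31 (adjusted p = 0.532, edgeR) and passed without Control replicate 1. It did not pass without Control replicates 1 and 3 (0.83, adjusted p = 0.0955, edgeR).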

How the results depend on the processing

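The number of members that passed was 2, and 1 in the legacy fit, 0 in limma-voom, 1 among protein-coding genes only, 5 with the GC and length correction and 16 with the TEC share as a covariate; leaving out 1 library gave 0 to 8, and leaving out Control replicates 1 and 3 gave 4. It was 2 in DESeq2, with other scalings and filters and on the deposited log2 values. Without Control replicate 1, Atp5d, Cox5a, Cox5b, Sdhb, Uqcr11, Uqcrc1 and Uqcrfs1 passed as higher and Cox7b as lower, where 11.9% of all genes tested passed. Of these, only Atp5d and Cox7b also passed without Control replicates 1 and 3. Calls gained by leaving out these Control libraries, singled out from the same members, are a description. The number of members that passed was 0 without Control replicate 2, Control replicate 4 or any 1 MIZ1KO library. Of all genes tested, 1.8% and 1.27% passed without Control replicates 2 and 4. Without MIZ1KO replicates 1, 2 and 3 the shares were 0.324%, 4.12% and 2.59%. The median log2 fold change of the members, 0.02, was -1.04 with the TEC share as a covariate, that of the nuclear members -1.14, and that of the mitochondrial members 0.92 with the GC and length correction; in the other alternatives each moved by less than the spread between libraries. All genes called numbered 692, against 1120 in DESeq2, 342 in limma-voom, 314 among protein-coding genes only, 451 with the GC and length correction, 296 with the TEC share as a covariate and 39 to 1350 without 1 library. With the TEC share as a covariate, Atp5g2 was -1.29 (adjusted p = 0.0439, edgeR) and Atp5j -1.20 (adjusted p = 0.0427, edgeR), where their log2 fold changes of 0.11 and 0.10 had not passed; the cause of these changes was not tested. Of 760 values of 38 genes followed singly, 714 stayed on their side of the threshold, 31 lost a call, 14 gained one and 1, Atp5g2, gained one with the opposite sign; 56 sign changes lay in values that passed in neither fit. The labels do not say whether the replicate numbers pair the libraries. Deviations from the group means correlated at 0.0233, 0.0665 and 0.162 between libraries of the same number, and at -0.158 to 0.134 between those of different numbers. With no known pairs to compare, these values cannot decide it. With the replicate block, 2 members and 555 genes passed and the members' median was 0.09.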
